A study of Mus musculus with 8 samples.

Results

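The nuclear pore and nuclear transport genes were 49 of the 27949 genes named on the array. They were chosen by name: every gene called Nup, Ipo, Xpo or Tnpo with a number, every Kpna or Kpnb gene, and Tpr, Ranbp2, Nxf1, Nxt1, Ran, Rangap1, Pom121, Aaas and Seh1l. The rule uses names and no measured value. The 49 genes had 108 probes between them, 35 genes had more than 1 probe, and the probe with the highest mean signal over the 8 arrays stood for its gene. All 49 names are current RefSeq symbols. Of the 49, 47 were tested, and the signal of 45 was well above background throughout. The remaining genes, Nup210l and Xpo4, were too dim to test.

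The study asked which RNAs are bound by DAZL, a germ-cell RNA-binding protein, in mouse embryonic stem (ES) cells. All samples came from Dazl-GFP, 1 re-derived transgenic ES line, kept on feeder fibroblasts stopped by irradiation, in medium with 15% serum, LIF (leukemia inhibitory factor) and the inhibitor pair called 2i, which was 1 µM PD0325901 against MEK and 3 µM CHIR99021 against GSK3β. The groups were 3 GFP immunoprecipitates (GFP IP, anti-GFP antibody), 2 PABP1 immunoprecipitates (PABP1 IP, antibody against the poly(A)-binding protein) and 3 inputs (total RNA, no antibody), all without crosslinking and all from the same line and medium. In this line GFP may be fused to DAZL or may report its gene, which the labels leave unsaid, and control-antibody IPs were not analysed here.

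Nuclear pores are large channels through the nuclear envelope, built from nucleoporins that form stacked rings, a central channel lined with flexible phenylalanine-glycine repeats, filaments on the cytoplasmic face and a basket on the nuclear face. Importins carry proteins in, exportins carry proteins and some RNAs out, and the small GTPase Ran sets the direction by releasing or loading their cargo. Most mRNA leaves by another route, with the Nxf1 and Nxt1 heterodimer. ES cells divide fast and rebuild their pores at each division.

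Between 41.5% and 52.6% of an array's 43379 spots rose well above background. Dazl mRNA was 14.1-fold higher in GFP IPs than in inputs (adjusted p = 2.16e-05) and lower in PABP1 IPs than in inputs (log2 difference −1.70 ± 0.23, adjusted p = 0.00063). Pabpc1, the mRNA of PABP1, was called neither in the PABP1 IPs (0.22 ± 0.68, adjusted p = 0.799) nor in the GFP IPs (−0.86 ± 0.61, adjusted p = 0.247) against input. Summed signal of 8 ES cell markers, all well above background on every array, was 573 to 635 times the array's 75th percentile in the GFP IPs, 539 to 544 in the PABP1 IPs and 472 to 520 in the inputs. Summed signal of 17 feeder fibroblast markers, of which 13 to 17 were well above background on an array, was 66.1 to 105 in the GFP IPs, 187 to 213 in the PABP1 IPs and 185 to 254 in the inputs. These sums compare the signal of the listed markers between kinds of sample. They measure neither the share of feeder RNA nor numbers of feeder cells. The part of feeder RNA in the differences below was not tested. Arrays lay on 2 slides: slide 1 held 1 GFP IP, 1 PABP1 IP and 2 inputs, and slide 2 held 2 GFP IPs, 1 PABP1 IP and 1 input. Within a slide, a lone array is assumed to vary as much as the arrays of the only group with 2 there, so calls on 1 slide rest on arms of 1 array and little replication.

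Values are log2 levels, the log2 of a probe's processed signal over the 75th percentile of its array, and differences are between group means of log2 levels. They set the share an mRNA takes in 1 kind of sample beside its share in another kind. The ± after a difference is limma's standard error (SE), from 3 GFP IPs, 2 PABP1 IPs and 3 inputs. A gene was called where limma's adjusted p over all 14744 tested genes was under 0.05. Unless stated otherwise, values and calls are those of a gene's brightest probe, and some other probes went the other way, as given below.

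In the GFP IPs the nuclear transport mRNAs split both ways against input. Of 47 tested, 39 were called, against a background of 64.7% of all tested genes: 18 were called higher (38.3%, against 21.4% of all tested genes) and 21 lower (44.7%, against 43.3% of all tested genes). The highest were Nup107, Nup93, Nup54, Nxt1, Kpna1 and Seh1l, and the lowest Tpr, Xpo5, Nup155, Tnpo3, Nup133 and Nup214. By brightest probe, importins split by family: 4 of 5 importin alpha adaptors were called higher, and 8 of 10 members of the importin beta family were called lower. This split depended on probe and processing. Tnpo1 and Tnpo2 each had another probe called the opposite way. With normexp background correction no importin alpha call was kept, and of the importin beta calls only those of Tnpo3, Ipo13 and Ipo11 were. The median difference was −0.14 over the members and −0.51 over all tested genes, and the members' median turned to 0.04 when the 75th percentile was taken over probes detected on all arrays. Among feeder markers 12 of 17 were called lower in this comparison, and among ES markers 5 of 8 were called higher.

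With slide as a block, 20 members were called higher and 22 lower in the GFP IP over input, the calls gained being Nup88 (0.44) and Nup210 (0.42) higher and Kpnb1 (−0.38) lower. Slide 1 alone, with 1 GFP IP, gave 15 and 20 and lost Ipo9, Kpna6, Nup37 and Nup62. Slide 2 alone, with 1 input, gave 13 and 19 and lost Ipo8, Kpna4, Kpna6, Nup153, Nup37, Nxf1 and Xpo7. Leaving out 1 array ended the calls of Ipo7 without GFP IP 1 or GFP IP 2 (−0.86 to −0.70, largest adjusted p = 0.065), Kpna4 without GFP IP 1, GFP IP 3, input 1 or input 2 (0.81 to 1.03, largest adjusted p = 0.128) and Nxf1 without GFP IP 3, input 1 or input 2 (0.48 to 0.50, largest adjusted p = 0.0795). With normexp background correction, 11 of 39 calls kept their direction and significance: Tpr, Nup155, Tnpo3, Nup133, Xpo5, Nup214, Ipo13 and Ipo11 lower, and Nup107, Nup54 and Nup93 higher.

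In the PABP1 IPs the same mRNAs were mostly lower than in input. Of 47 tested, 35 were called, against a background of 59.6% of all tested genes: 8 were called higher (17.0%, against 34.3% of all tested genes) and 27 were called lower (57.4%, against 25.3% of all tested genes). Genes called higher included Nup37, Nup43, Nxt1, Ran, Nxf1 and Nup35, and the lowest were Tpr, Ranbp2, Nup210, Nup214, Ipo7 and Kpna6. All 4 tested exportins, 8 of 10 importin beta family members and 4 of 5 cytoplasmic-side nucleoporins were called lower. The median difference was −0.74 over the members and 0.24 over all tested genes. It stayed below 0 under each scaling tried, from −1.05 with quantile normalization to −0.40 with normexp.

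With slide as a block, the PABP1 IP over input gave 9 higher and 30 lower members, the calls gained being Aaas (0.38) higher and Kpna4 (−0.62), Nup188 (−0.42) and Nup160 (−0.32) lower. Slide 1 alone, with 1 PABP1 IP, gave 6 and 26 and lost Nup54, Nup62, Nup93 and Xpo6. Slide 2 alone, 1 PABP1 IP against 1 input, gave 4 and 22 and lost Kpna2, Nup205, Nup35, Nup54, Nup62, Nup85, Nup93, Nxf1 and Xpo6. Leaving out 1 array ended the calls of Kpna2 without PABP1 IP 2, input 1 or input 2 (−0.59 to −0.49, largest adjusted p = 0.132), Nup54 without GFP IP 3, PABP1 IP 1, PABP1 IP 2, input 1 or input 2 (0.31 to 0.38, largest adjusted p = 0.144) and Nup93 without PABP1 IP 1, PABP1 IP 2, input 1 or input 2 (−0.52 to −0.42, largest adjusted p = 0.105). The same held for Xpo1 without PABP1 IP 1, PABP1 IP 2 or input 2 (−1.09 to −0.85, largest adjusted p = 0.102), Xpo5 without PABP1 IP 2, input 1 or input 2 (−1.32 to −0.98, largest adjusted p = 0.118) and Xpo6 without PABP1 IP 1 or PABP1 IP 2 (−0.46 to −0.43, largest adjusted p = 0.0777). With normexp, 7 of 35 calls were kept: Tpr, Nup210, Nup214 and Ranbp2 lower, and Nup37, Nxt1 and Nup43 higher.

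Set against the PABP1 IPs, the GFP IPs held more of these mRNAs. Of 47 tested, 31 were called, against a background of 71.4% of all tested genes: 23 were called higher in the GFP IPs (48.9%, against 23.9% of all tested genes) and 8 lower (17.0%, against 47.4% of all tested genes). Nup210, Nup93, Nup107, Xpo1, Tpr and Kpna6 stood highest in the GFP IPs, and Nup37, Nup35, Nup43, Ran, Nup50 and Nup205 lowest. The median difference was 0.42 over the members and −0.67 over all tested genes. With the percentile over detected probes the split was 27 higher and 5 lower, and with quantile normalization 26 and 4. Feeder markers went the other way, with 14 of 17 called lower in the GFP IPs.

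**Figure D1:**
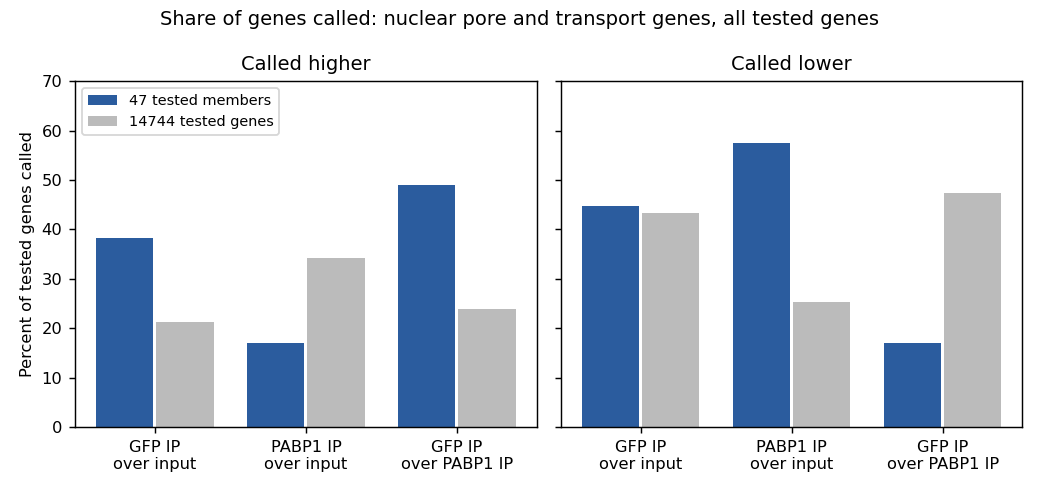
Percent of tested genes called higher (left panel) and lower (right panel) in each comparison, for the 47 tested nuclear pore and transport genes (blue) and all 14744 tested genes (grey). The members' share called lower in the PABP1 IP over input was 57.4% against 25.3%, and their share called higher in the GFP IP over the PABP1 IP was 48.9% against 23.9%.

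With slide as a block, the GFP IP over the PABP1 IP gave 26 higher and 14 lower members. The calls gained were Nup98 (0.55), Nup188 (0.44) and Ipo4 (0.38) higher, and Xpo5 (−0.63), Nxf1 (−0.47), Nxt1 (−0.45), Kpna2 (−0.42), Nup133 (−0.26) and Tnpo3 (−0.26) lower. Slide 1 alone, 1 GFP IP against 1 PABP1 IP, gave 20 and 5 and lost Nup160, Nup205, Nup214, Nup85, Rangap1 and Xpo7. Slide 2 alone, with 1 PABP1 IP, gave 21 and 6 and lost Nup160, Nup205, Nup85, Rangap1 and Xpo7. Leaving out 1 array ended the calls of Ipo7 without GFP IP 1, GFP IP 3 or PABP1 IP 1 (0.70 to 0.92, largest adjusted p = 0.133), Kpna4 without PABP1 IP 1 (1.0, adjusted p = 0.0955), Nup160 without GFP IP 2, GFP IP 3, PABP1 IP 1 or PABP1 IP 2 (0.34 to 0.43, largest adjusted p = 0.115) and Nup205 without GFP IP 1, GFP IP 3, PABP1 IP 1 or PABP1 IP 2 (−0.50 to −0.37, largest adjusted p = 0.102). The same held for Nup214 without PABP1 IP 1 (0.57, adjusted p = 0.0715), Nup85 without PABP1 IP 1 (−0.40, adjusted p = 0.0821), Rangap1 without PABP1 IP 1 (−0.45, adjusted p = 0.0655) and Xpo7 without PABP1 IP 1 (0.38, adjusted p = 0.0966). With normexp, 12 of 31 calls were kept: Nup37, Nup35, Ran and Nup43 lower, and Xpo6, Tpr, Ranbp2, Nup107, Kpna6, Xpo1, Nup93 and Nup210 higher. The comparisons share arrays: both IPs were set against the same 3 inputs, and each IP's arrays enter a pair of comparisons. By call, 18 members were lower than input in both IPs, 6 were higher in both, 5 were higher in the GFP IPs and lower in the PABP1 IPs, and 1, Nup35, was lower in the GFP IPs and higher in the PABP1 IPs.

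**Figure D2:**
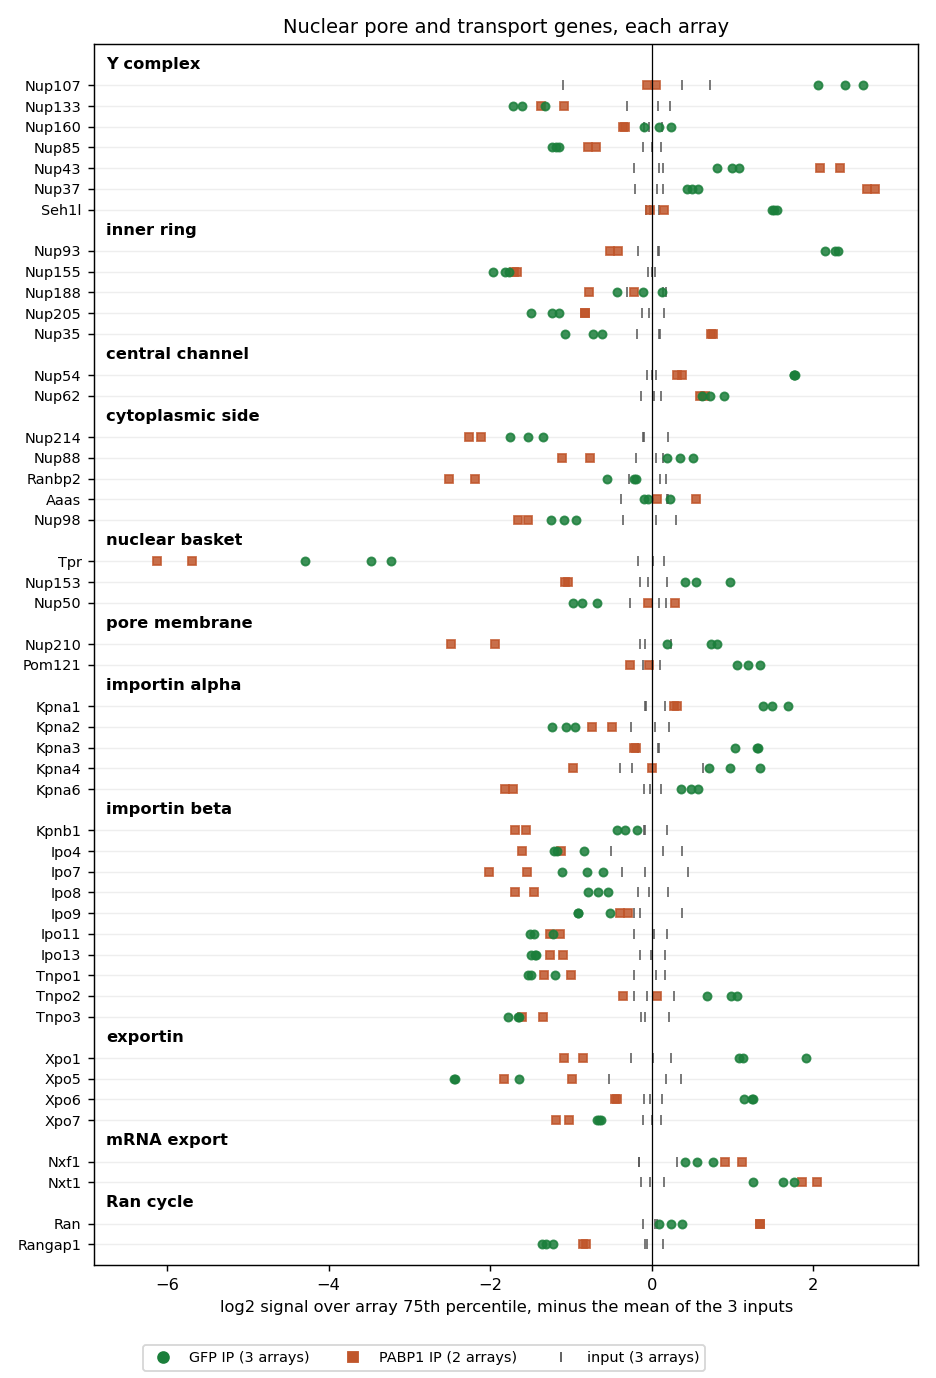
Log2 level of each of the 47 tested members on each array, minus the mean of its 3 inputs, with genes grouped by role. Circles are the 3 GFP IPs, squares the 2 PABP1 IPs and ticks the 3 inputs; Tpr lies farthest left in both IPs, and Nup37 and Nup43 lie farthest right in the PABP1 IPs.

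The Y complex is the scaffold of the outer rings and seeds pore assembly after mitosis. The 7 of its genes that the name rule takes in, all tested, did not move as a unit. Of these, 4 were called higher and 2 lower in the GFP IP over input. In the PABP1 IP over input 2 were called higher and 2 lower. Nup107, which gives the complex its usual name, had log2 levels of 0.48, 0.71 and 0.14 in the GFP IPs, −1.98 and −1.86 in the PABP1 IPs, and −3.01, −1.54 and −1.19 in the inputs. Each GFP IP stood above every PABP1 IP and input, while the PABP1 IPs fell among the inputs, which spread widely and of which 1 was not well above background. Nup107 was 5.12-fold higher in the GFP IPs than in the inputs, a difference of 2.35 ± 0.45, adjusted p = 0.00297, and 5.13-fold higher than in the PABP1 IPs, a difference of 2.36 ± 0.50, adjusted p = 0.00426.

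Seh1l, a small WD-repeat subunit shared with a nutrient-sensing complex, had log2 levels of 4.26, 4.20 and 4.23 in the GFP IPs, 2.70 and 2.87 in the PABP1 IPs, and 2.81, 2.69 and 2.65 in the inputs. On this brightest probe the GFP IPs were above all other arrays, and the PABP1 IPs overlapped the inputs. Its differences of the GFP IPs were 1.51 ± 0.11, adjusted p = 4.65e-05 over input and 1.44 ± 0.12, adjusted p = 4.64e-05 over the PABP1 IPs. Another probe of Seh1l, well above background on all 8 arrays, put the PABP1 IPs above all other arrays. That probe stood at 2.20 in the PABP1 IP over input and 0.62 in the GFP IP over input. Nup133, which helps tether the complex to membrane, went down in both IPs, with log2 levels of 4.15, 4.55 and 4.27 in the GFP IPs, 4.78 and 4.50 in the PABP1 IPs, and 6.10, 5.94 and 5.57 in the inputs. Neither IP overlapped the inputs, and the IPs overlapped each other. Its differences were −1.55 ± 0.18, adjusted p = 0.000341 for the GFP IP over input and −1.23 ± 0.21, adjusted p = 0.00176 for the PABP1 IP over input.

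The WD-repeat subunits Nup37 and Nup43 were called higher in both IPs, and more so in the PABP1 IPs. Nup37 had log2 levels of 1.62, 1.54 and 1.48 in the GFP IPs, 3.81 and 3.71 in the PABP1 IPs, and 0.84, 1.11 and 1.18 in the inputs, so that no array of any group overlapped another group. It was 6.56-fold higher in the PABP1 IPs than in input (2.71 ± 0.14, adjusted p = 1.91e-05) and 1.42-fold higher in the GFP IPs than in input (0.50 ± 0.13, adjusted p = 0.0106). Between the IPs, Nup37 was 4.63-fold lower in the GFP IPs, with a difference of −2.21 ± 0.14, adjusted p = 1.65e-05. Nup43 had log2 levels of 1.13, 0.86 and 1.05 in the GFP IPs, 2.12 and 2.38 in the PABP1 IPs, and 0.18, −0.17 and 0.14 in the inputs, again without overlap between groups. Its differences were 0.96 ± 0.15, adjusted p = 0.00116 for the GFP IP over input, 2.20 ± 0.17, adjusted p = 5.19e-05 for the PABP1 IP over input and −1.24 ± 0.17, adjusted p = 0.000448 between the IPs.

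Nup160, an arm of the Y, had log2 levels of −0.32, 0.03 and −0.12 in the GFP IPs, −0.54 and −0.57 in the PABP1 IPs, and −0.24, −0.09 and −0.31 in the inputs. The GFP IPs overlapped the inputs, and neither difference from input was called (0.08 ± 0.13, adjusted p = 0.612 for the GFP IP and −0.34 ± 0.14, adjusted p = 0.078 for the PABP1 IP), although with slide as a block the PABP1 IP's was (−0.32). Its difference between the IPs was 0.42 ± 0.14, adjusted p = 0.0336. The last of the 7 Y complex genes taken in, Nup85, was called lower than input in both IPs. It was lower by 1.19 in the GFP IPs and 0.74 in the PABP1 IPs on the log2 scale. Its difference between the IPs, −0.45, turned to 0.74 with quantile normalization.

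The inner ring binds the scaffold to the channel and the membrane. Nup93, which anchors the channel nucleoporins, had the largest difference between the IPs after Nup210. Its log2 levels were 4.86, 4.90 and 4.74 in the GFP IPs, 2.18 and 2.08 in the PABP1 IPs, and 2.69, 2.67 and 2.43 in the inputs. All GFP IPs stood far above all inputs, and the PABP1 IPs stood below them. In the PABP1 IP over input its difference was −0.47 ± 0.13, adjusted p = 0.0196. Nup93 was 4.72-fold higher in the GFP IPs than in input (2.24 ± 0.12, adjusted p = 2.1e-05) and 6.52-fold higher in the GFP IPs than in the PABP1 IPs (2.71 ± 0.13, adjusted p = 9.49e-06).

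Nup155, which contacts the pore membrane, ran low in both IPs, with log2 levels of 2.57, 2.52 and 2.37 in the GFP IPs, 2.63 and 2.67 in the PABP1 IPs, and 4.38, 4.34 and 4.29 in the inputs. The IPs did not overlap the inputs and lay next to each other. Its differences from input were −1.85 ± 0.11, adjusted p = 2.36e-05 in the GFP IPs and −1.68 ± 0.12, adjusted p = 3.98e-05 in the PABP1 IPs, and that between the IPs, −0.16, was not called. These values are of the brightest probe of Nup155. Another probe, well above background on all 8 arrays, was called higher in the GFP IP over input (1.40) and stood at −1.65 in the PABP1 IP over input. Nup205, a large structural partner of Nup93, had log2 levels of −2.49, −2.14 and −2.23 in the GFP IPs, −1.81 and −1.82 in the PABP1 IPs, and −0.84, −1.02 and −1.11 in the inputs with every IP below every input. Its differences from input were −1.29 ± 0.14, adjusted p = 0.000192 in the GFP IPs and −0.83 ± 0.15, adjusted p = 0.00263 in the PABP1 IPs.

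Nup35, a membrane-binding inner ring protein, had log2 levels of 2.33, 1.87 and 2.22 in the GFP IPs, 3.68 and 3.71 in the PABP1 IPs, and 3.03, 2.77 and 3.05 in the inputs. The PABP1 IPs were above every input and the GFP IPs below every input. Its differences were −0.81 ± 0.16, adjusted p = 0.00314 for the GFP IP over input, 0.75 ± 0.17, adjusted p = 0.00803 for the PABP1 IP over input and −1.56 ± 0.17, adjusted p = 0.000176 between the IPs. Nup188, the other large inner ring protein, had differences from input of −0.14 in the GFP IPs and −0.50 in the PABP1 IPs. It was called in no comparison without a slide block, but with slide as a block it was called between the IPs (0.44) and in the PABP1 IP over input (−0.42). These values are of its brightest probe. Its other probes, well above background on all 8 arrays, stood at −2.25 and −0.52 between the IPs without a slide block. They stood at 0.94 and −0.43 in the PABP1 IP over input, and at −1.31 and −0.96 in the GFP IP over input.

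Both central channel genes on the list, Nup54 and Nup62, were called higher in both IPs. These nucleoporins carry the repeats through which importins pass. Nup54 had log2 levels of 3.53, 3.55 and 3.54 in the GFP IPs, 2.08 and 2.15 in the PABP1 IPs, and 1.78, 1.71 and 1.83 in the inputs, which put the GFP IPs clear of all other arrays. The difference was 1.77 ± 0.10, adjusted p = 2.22e-05 in the GFP IP over input, 0.34 ± 0.11, adjusted p = 0.0307 in the PABP1 IP over input and 1.42 ± 0.11, adjusted p = 3.32e-05 between the IPs. Nup62 had log2 levels of 4.12, 3.85 and 3.96 in the GFP IPs, 3.89 and 3.83 in the PABP1 IPs, and 3.35, 3.09 and 3.26 in the inputs; both IPs were above the inputs and overlapped each other. Its differences were 0.74 ± 0.13, adjusted p = 0.00167 in the GFP IP over input and 0.63 ± 0.14, adjusted p = 0.00663 in the PABP1 IP over input. The PABP1 IP calls depended on the scaling: with quantile normalization Nup62 stood at 0.33 (adjusted p = 0.055) and Nup54 at 0.20 (adjusted p = 0.174), and with the percentile over detected probes Nup54 stood at 0.09 (adjusted p = 0.546). Nup62 was not called with normexp in either IP over input.

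None of the 5 nucleoporins placed on the cytoplasmic side was called higher than input in either IP, though with slide as a block Nup88 was in the GFP IPs and Aaas in the PABP1 IPs. Ranbp2, the giant filament protein that binds Ran and attaches SUMO to other proteins, had log2 levels of 1.03, 1.36 and 1.38 in the GFP IPs, −0.93 and −0.61 in the PABP1 IPs, and 1.30, 1.68 and 1.75 in the inputs. The GFP IPs overlapped the inputs, and both PABP1 IPs lay far below them. Ranbp2 was 5.08-fold lower in the PABP1 IPs than in input (−2.35 ± 0.20, adjusted p = 8.03e-05), while its difference in the GFP IPs, −0.32 ± 0.18, adjusted p = 0.147, was not called. It was 4.06-fold higher in the GFP IPs than in the PABP1 IPs (2.02 ± 0.20, adjusted p = 9.55e-05).

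Nup214, which with Nup88 helps exporting mRNPs to leave the pore, had log2 levels of 3.03, 2.63 and 2.85 in the GFP IPs, 2.12 and 2.26 in the PABP1 IPs, and 4.29, 4.28 and 4.58 in the inputs. No groups overlapped, and the inputs were highest. The differences were −1.54 ± 0.15, adjusted p = 0.000143 in the GFP IP over input and −2.19 ± 0.17, adjusted p = 5.5e-05 in the PABP1 IP over input. Nup88 parted from its partner: its log2 levels were 5.50, 5.67 and 5.35 in the GFP IPs, 4.40 and 4.05 in the PABP1 IPs, and 5.30, 5.21 and 4.96 in the inputs. The GFP IPs were slightly above the inputs (0.35 ± 0.16, adjusted p = 0.0896, not called, though called at 0.44 with slide as a block) and the PABP1 IPs below them (−0.94 ± 0.18, adjusted p = 0.00303). Between the IPs, Nup88 differed by 1.28 ± 0.18, adjusted p = 0.000499.

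Nup98, a repeat nucleoporin found on both faces of the pore, had log2 levels of 2.66, 2.51 and 2.35 in the GFP IPs, 2.06 and 1.93 in the PABP1 IPs, and 3.89, 3.65 and 3.24 in the inputs. Every IP was below every input, with differences of −1.09 ± 0.18, adjusted p = 0.00175 in the GFP IPs and −1.60 ± 0.21, adjusted p = 0.000491 in the PABP1 IPs. Aaas, the WD-repeat protein aladin, had differences from input of 0.02 in the GFP IPs and 0.30 in the PABP1 IPs, neither called. With slide as a block its difference in the PABP1 IP over input, 0.38, was called.

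The 3 basket genes each took a different course. Tpr, the coiled-coil filament of the basket, had log2 levels of −0.30, 0.76 and 0.52 in the GFP IPs, −2.14 and −1.70 in the PABP1 IPs, and 4.0, 4.14 and 3.82 in the inputs. The inputs lay far above both IPs, the GFP IPs above the PABP1 IPs, and GFP IP 1 below the other GFP IPs. Tpr was 12.7-fold lower in the GFP IPs than in input (adjusted p = 6.22e-05) and 59.9-fold lower in the PABP1 IPs than in input (adjusted p = 1.94e-05), on its brightest probe. These folds depend on the probe. The other probe of Tpr differed by −1.09 in the GFP IP over input (adjusted p = 0.294) and by −2.48 in the PABP1 IP over input (adjusted p = 0.0571), neither called, and its GFP IPs overlapped the inputs.

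Nup153, the mobile basket protein that binds importins and Tpr, had log2 levels of 2.07, 2.49 and 1.94 in the GFP IPs, 0.49 and 0.45 in the PABP1 IPs, and 1.38, 1.72 and 1.48 in the inputs. The GFP IPs lay above the inputs and the PABP1 IPs below. Its differences were 0.64 ± 0.17, adjusted p = 0.014 for the GFP IP over input, −1.06 ± 0.19, adjusted p = 0.00256 for the PABP1 IP over input and 1.70 ± 0.19, adjusted p = 0.000189 between the IPs. Nup50, a partner of Nup153 that helps release importin alpha cargo, had log2 levels of 1.84, 2.02 and 1.73 in the GFP IPs, 2.99 and 2.66 in the PABP1 IPs, and 2.88, 2.79 and 2.43 in the inputs. Here the GFP IPs were the low group, at −0.84 ± 0.17, adjusted p = 0.00395 over input and −0.96 ± 0.19, adjusted p = 0.00296 over the PABP1 IPs, and the PABP1 IPs overlapped the inputs.

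Nup210, a membrane-spanning glycoprotein of the pore, differed most between the IPs, with log2 levels of 6.44, 5.90 and 6.51 in the GFP IPs, 3.22 and 3.76 in the PABP1 IPs, and 5.62, 5.55 and 5.94 in the inputs. The PABP1 IPs were far below every other array, and the GFP IPs overlapped the inputs, above which they were called with slide as a block (0.42) but not without it. The differences were −2.21 ± 0.25, adjusted p = 0.000287 for the PABP1 IP over input and 2.79 ± 0.25, adjusted p = 6.7e-05, or 6.93-fold higher, for the GFP IP over the PABP1 IP. Pom121, another membrane nucleoporin, had log2 levels of 2.64, 2.51 and 2.79 in the GFP IPs, 1.19 and 1.42 in the PABP1 IPs, and 1.35, 1.46 and 1.56 in the inputs, with the GFP IPs above all other arrays. It was 2.29-fold higher in the GFP IPs than in input (1.20 ± 0.13, adjusted p = 0.000226), while the PABP1 IPs overlapped the inputs. Nup210l, a relative of Nup210, was well above background on 0 arrays.

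**Figure D3:**
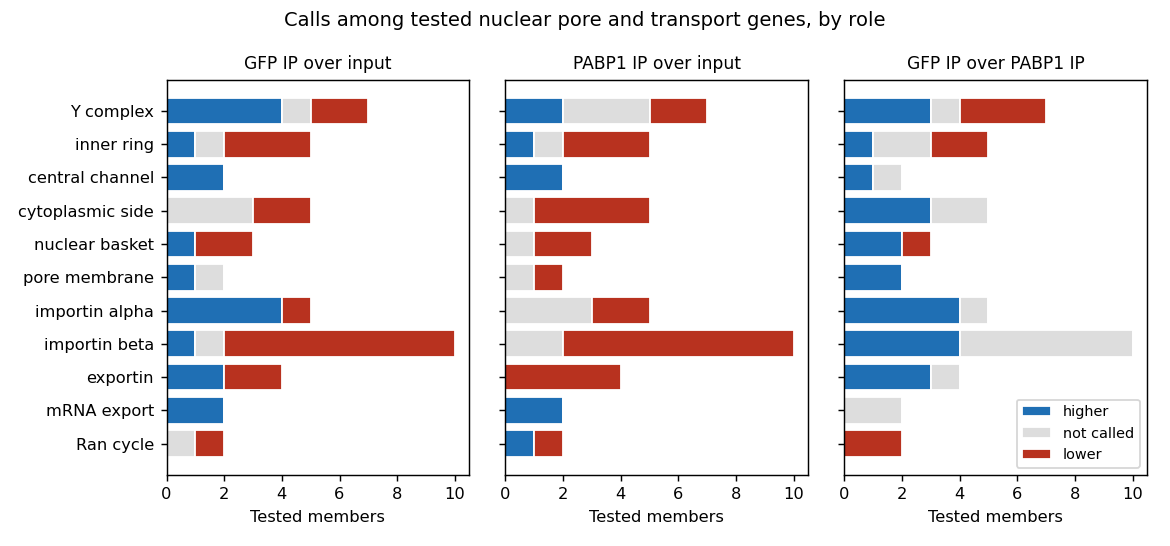
Number of tested members called higher (blue), not called (grey) and called lower (red) in each comparison, by role. By brightest probe, 4 of 5 importin alpha genes are higher and 8 of 10 importin beta genes lower in the GFP IP over input. All 4 tested exportins are lower in the PABP1 IP over input. With normexp none of these importin alpha and exportin calls was kept, and of the importin beta calls only those of Tnpo3, Ipo13 and Ipo11 were.

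Importin alpha adaptors read the classical import signal of a cargo and hand it to importin beta. Kpna1, Kpna3, Kpna4 and Kpna6 were called higher in the GFP IP over input and in the GFP IP over the PABP1 IP, and Kpna2 was called lower than input in both IPs. Kpna1 had log2 levels of 2.19, 1.88 and 2.0 in the GFP IPs, 0.79 and 0.82 in the PABP1 IPs, and 0.67, 0.44 and 0.42 in the inputs, and Kpna3 2.35, 2.61 and 2.62 in the GFP IPs, 1.12 and 1.10 in the PABP1 IPs, and 1.40, 1.39 and 1.14 in the inputs. For both genes the GFP IPs were above all other arrays. The differences in the GFP IP over input were 1.51 ± 0.13, adjusted p = 8.66e-05 for Kpna1 and 1.22 ± 0.13, adjusted p = 0.000222 for Kpna3. Their differences in the PABP1 IP over input, 0.29 and −0.21, were not called.

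Kpna6 had log2 levels of 3.81, 3.72 and 3.60 in the GFP IPs, 1.42 and 1.52 in the PABP1 IPs, and 3.35, 3.14 and 3.21 in the inputs. The GFP IPs lay just above the inputs and the PABP1 IPs well below them. Its differences were 0.47 ± 0.12, adjusted p = 0.00931 for the GFP IP over input, −1.76 ± 0.13, adjusted p = 4.61e-05 for the PABP1 IP over input and 2.24 ± 0.13, adjusted p = 1.25e-05 between the IPs. Kpna4 was dimmer and more scattered, with log2 levels of 0.54, −0.10 and 0.16 in the GFP IPs, −1.79 and −0.80 in the PABP1 IPs, and −1.05, −1.20 and −0.18 in the inputs, and differed by 1.01 ± 0.36, adjusted p = 0.0422 in the GFP IP over input. Kpna2, the adaptor known to be prominent in undifferentiated mouse ES cells, had log2 levels of 4.87, 4.97 and 4.69 in the GFP IPs, 5.44 and 5.19 in the PABP1 IPs, and 6.14, 5.97 and 5.67 in the inputs. All inputs stood above all IPs, at −1.09 ± 0.16, adjusted p = 0.000982 for the GFP IP over input and −0.61 ± 0.18, adjusted p = 0.0222 for the PABP1 IP over input. These values are of the brightest probe of Kpna2. On its other probe, well above background on all 8 arrays, both IPs overlapped the inputs. That probe stood at −0.08 in the GFP IP over input and 0.37 in the PABP1 IP over input.

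Proteins of the importin beta family bind cargo themselves or through an adaptor and pass through the channel. In the GFP IP over input, 8 of 10 were called lower, Tnpo2 was called higher, and Kpnb1 was not called. Kpnb1, importin beta itself, had log2 levels of 3.47, 3.22 and 3.31 in the GFP IPs, 1.96 and 2.09 in the PABP1 IPs, and 3.57, 3.54 and 3.83 in the inputs. On this brightest probe the GFP IPs were just below the inputs (−0.31 ± 0.13, adjusted p = 0.0709, called at −0.38 with slide as a block). The PABP1 IPs were far below the inputs (−1.62 ± 0.15, adjusted p = 0.000103), and the GFP IPs exceeded the PABP1 IPs by 1.31 ± 0.15, adjusted p = 0.000177. The other probe of Kpnb1, well above background on all 8 arrays, had the opposite sign between the IPs, at −0.59. It stood at −1.63 in the GFP IP over input and −1.04 in the PABP1 IP over input.

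Tnpo3, the import receptor of SR splicing factors, had log2 levels of 3.70, 3.56 and 3.68 in the GFP IPs, 3.73 and 4.0 in the PABP1 IPs, and 5.21, 5.25 and 5.55 in the inputs. The IPs were close to each other and below all inputs, at −1.69 ± 0.14, adjusted p = 7.75e-05 for the GFP IP and −1.48 ± 0.16, adjusted p = 0.000204 for the PABP1 IP. Tnpo1, the receptor of hnRNP proteins, had log2 levels of 3.86, 4.16 and 3.83 in the GFP IPs, 4.36 and 4.03 in the PABP1 IPs, and 5.53, 5.42 and 5.14 in the inputs, again with both IPs below all inputs. Its differences from input were −1.41 ± 0.17, adjusted p = 0.000316 in the GFP IPs and −1.17 ± 0.19, adjusted p = 0.00134 in the PABP1 IPs. These values are of the brightest probe of Tnpo1. Its other probe, well above background on all 8 arrays, was called higher in the GFP IP over input (1.97) and stood at −2.10 in the PABP1 IP over input. Ipo7, which imports ribosomal proteins and linker histone, had log2 levels of 2.90, 2.59 and 3.1 in the GFP IPs, 1.69 and 2.16 in the PABP1 IPs, and 3.33, 3.62 and 4.16 in the inputs. Inputs were highest, GFP IPs next and PABP1 IPs lowest. The differences of Ipo7 were −0.84 ± 0.25, adjusted p = 0.0225 in the GFP IP over input and −1.78 ± 0.28, adjusted p = 0.00135 in the PABP1 IP over input.

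Ipo9, a histone importer, had log2 levels of −2.54, −2.15 and −2.54 in the GFP IPs, −1.92 and −2.02 in the PABP1 IPs, and −1.25, −1.78 and −1.85 in the inputs. It was called lower in the GFP IP over input (−0.78 ± 0.20, adjusted p = 0.0106) and was not called in the other comparisons. The remaining members Ipo4, Ipo8, Ipo11 and Ipo13 were called lower than input in both IPs. Their differences ran from −1.46 (Ipo13) to −0.66 (Ipo8) in the GFP IP over input and from −1.58 (Ipo8) to −1.18 (Ipo13) in the PABP1 IP over input. Tnpo2, a close relative of Tnpo1, differed by 0.91 ± 0.19, adjusted p = 0.0049 in the GFP IP over input and by −0.14, not called, in the PABP1 IP over input. Between the IPs no importin beta family member was called lower in the GFP IPs, and 4 were called higher: Kpnb1, Tnpo2, Ipo7 and Ipo8. With slide as a block Tnpo3 was called lower (−0.26) and Ipo4 higher (0.38).

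Exportins bind their cargo together with Ran in its GTP form. Xpo1, the general exporter of proteins with leucine-rich signals, had log2 levels of 3.20, 3.97 and 3.15 in the GFP IPs, 1.21 and 0.98 in the PABP1 IPs, and 2.08, 2.31 and 1.81 in the inputs. The GFP IPs were above the inputs, GFP IP 2 most of all, and the PABP1 IPs were below them. Xpo1 was 2.59-fold higher in the GFP IPs than in input (1.37 ± 0.25, adjusted p = 0.00249), at −0.97 ± 0.28, adjusted p = 0.0198 in the PABP1 IP over input, and 5.08-fold higher in the GFP IPs than in the PABP1 IPs (2.35 ± 0.28, adjusted p = 0.000248). Xpo6, the exporter of actin, showed the same signs, with differences of 1.21 ± 0.11, adjusted p = 0.000102 in the GFP IP over input and −0.45 ± 0.12, adjusted p = 0.0159 in the PABP1 IP over input.

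Xpo5, the exporter of microRNA precursors, had log2 levels of 0.04, 0.85 and 0.05 in the GFP IPs, 1.50 and 0.66 in the PABP1 IPs, and 2.85, 2.66 and 1.95 in the inputs. Inputs were above all IPs, and the IPs overlapped. It was 4.51-fold lower in the GFP IPs than in input (−2.17 ± 0.35, adjusted p = 0.00138) and 2.65-fold lower in the PABP1 IPs than in input (−1.40 ± 0.39, adjusted p = 0.0175). These folds depend on the probe. Another probe of Xpo5, well above background on all 8 arrays, stood at −0.58 in the GFP IP over input and −0.82 in the PABP1 IP over input. Between the IPs it stood at 0.24, against −0.77 on the brightest probe. Xpo7 had log2 levels of 1.15, 1.17 and 1.12 in the GFP IPs, 0.62 and 0.77 in the PABP1 IPs, and 1.92, 1.80 and 1.69 in the inputs, with no overlap between groups, and was called lower than input in the GFP IPs (−0.65 ± 0.11, adjusted p = 0.00183) and in the PABP1 IPs (−1.11 ± 0.12, adjusted p = 0.000263). Xpo4 was well above background on 2 of 3 GFP IPs, 0 of 2 PABP1 IPs and 2 of 3 inputs, with log2 levels of −2.93, −2.74 and −3.12 in the GFP IPs, −3.75 and −4.37 in the PABP1 IPs, and −2.81, −1.98 and −2.40 in the inputs. Mean log2 levels were −2.93 in the GFP IPs, −4.06 in the PABP1 IPs and −2.40 in the inputs. The signal was about 2.08-fold higher in the GFP IPs than in the PABP1 IPs, and about 3.01-fold lower in the PABP1 IPs than in the inputs. These folds set the dim group at its own signal or the lowest signal well above background on the array, whichever was higher, and had no test. They are not strict bounds, because the GFP IP and input means include arrays not well above background.

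Nxt1 and Nxf1 form the mRNA export receptor, and Nxt1 was the bright one. Nxt1, the small subunit, had log2 levels of 5.02, 4.51 and 4.89 in the GFP IPs, 5.11 and 5.30 in the PABP1 IPs, and 3.24, 3.12 and 3.41 in the inputs. All IPs were above all inputs, and the PABP1 IPs lay just above the GFP IPs, a difference called with slide as a block (−0.45 for the GFP IP over the PABP1 IP) but not without it. Nxt1 was 2.93-fold higher in the GFP IPs than in input (1.55 ± 0.17, adjusted p = 0.00021) and 3.87-fold higher in the PABP1 IPs than in input (1.95 ± 0.19, adjusted p = 0.000124). Nxf1, the large subunit, was dim. It was well above background on all 3 GFP IPs and both PABP1 IPs but on 1 of 3 inputs, so it passed the filter through the IPs alone. Its log2 levels were −3.23, −3.09 and −2.88 in the GFP IPs, −2.74 and −2.53 in the PABP1 IPs, and −3.80, −3.80 and −3.33 in the inputs. Its differences from input were 0.58 ± 0.17, adjusted p = 0.0221 in the GFP IPs and 1.01 ± 0.19, adjusted p = 0.00331 in the PABP1 IPs, set against inputs that were mostly not well above background. With normexp they turned to −0.03 and −0.20, neither called.

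Ran had log2 levels of 8.14, 7.85 and 8.0 in the GFP IPs, 9.1 and 9.1 in the PABP1 IPs, and 7.82, 7.66 and 7.80 in the inputs. The PABP1 IPs were above all other arrays, and the GFP IPs were only just above the inputs. Ran was 2.53-fold higher in the PABP1 IPs than in input (1.34 ± 0.13, adjusted p = 0.000148), its difference in the GFP IP over input was 0.24 ± 0.12, adjusted p = 0.117, not called, and that between the IPs was −1.10 ± 0.13, adjusted p = 0.000253. With quantile normalization the difference between the IPs turned to 0.51 and that of the PABP1 IP over input became 0.47, neither called. Rangap1, which makes Ran hydrolyse GTP at the cytoplasmic face, had log2 levels of 3.68, 3.54 and 3.60 in the GFP IPs, 4.09 and 4.06 in the PABP1 IPs, and 5.04, 4.82 and 4.85 in the inputs. Every group was clear of the others, inputs highest. The differences from input were −1.30 ± 0.11, adjusted p = 8.61e-05 in the GFP IPs and −0.83 ± 0.12, adjusted p = 0.00101 in the PABP1 IPs, and the difference between the IPs, −0.47, turned to 0.08 with quantile normalization.

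Of these genes, 6 were called in opposite directions over input in the IPs. Nup93, Xpo1, Kpna6, Nup153 and Xpo6 were higher than input in the GFP IPs and lower in the PABP1 IPs, and Nup35 was the reverse. The difference between the IPs is that of the GFP IP over input less that of the PABP1 IP over input, on the same arrays, so it restates how these genes were chosen and is given as a description. It was 2.71 for Nup93, 2.35 for Xpo1, 2.24 for Kpna6, 1.70 for Nup153, 1.66 for Xpo6 and −1.56 for Nup35. In all 6, no array of an IP overlapped the inputs or the other IP. That separation also follows largely from how the genes were chosen and is given as a description. The PABP1 IP over input side was the smaller one for Nup93, Xpo1, Xpo6 and Nup35, and the calls of Nup93, Xpo1 and Xpo6 there were lost on leaving out single arrays, as given above. With normexp none of the 6 was called on both sides of input. Nup93 alone was still called higher in the GFP IP over input (1.98, adjusted p = 0.0321), while its difference in the PABP1 IP over input was −0.23 (adjusted p = 0.829).

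**Figure D4:**
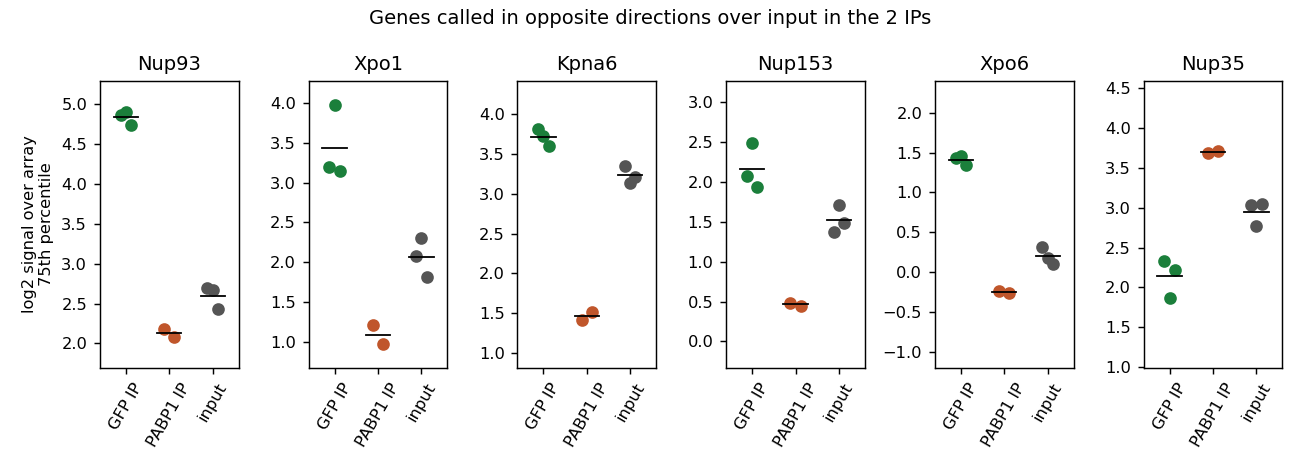
Log2 level on each array (points) and group mean (lines) for the 6 members called in opposite directions over input in the GFP IPs and PABP1 IPs. Each panel spans the same range of log2 units; in Nup93 the GFP IPs lie at 4.74 to 4.90 and the PABP1 IPs at 2.08 to 2.18, on either side of the inputs at 2.43 to 2.69.

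Other probes of the same gene were set beside the brightest one. Another probe well above background on all 8 arrays existed for 24 members, 27 probes in all. Among those of called genes, the other probe had the same sign as the brightest probe for 15 of 21 probes in the GFP IP over input, 15 of 18 in the PABP1 IP over input and 13 of 18 in the GFP IP over the PABP1 IP. In the GFP IP over input, Nxt1, Nup54, Ipo7, Ipo8, Kpna3 and Rangap1 were among the genes with another probe called in the same direction. For Nup54 the other probe stood at 2.79 in the GFP IP over input and 1.11 in the PABP1 IP over input, and for Nxt1 at 1.66 and 2.31.

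Some probes of a gene went opposite ways, each with its own call among 20624 probes. In the GFP IP over input the other probe of Nup155 was at 1.40, that of Tnpo1 at 1.97 and that of Tnpo2 at −0.88. In the PABP1 IP over input the other probe of Nup153 was at 0.68 and that of Nup214 at 0.80. Between the IPs another probe of Nup50 was at 0.74 and that of Seh1l at −1.58. Further probes well above background on all 8 arrays had the opposite sign to the called brightest probe, without a call of their own. They were probes of Nup50, Nup214 and Tnpo3 in the GFP IP over input and of Kpna2 in the PABP1 IP over input. Between the IPs they were probes of Kpnb1, Nup160 and Nup214. The gaps were widest for Tnpo1 and Nup155, whose other probes exceeded the PABP1 IPs by 4.08 and 3.05 in the GFP IPs, while their brightest probes differed there by −0.25 and −0.16. Where a probe lies in its transcript was not analysed here. With a gene's probes averaged in place of its brightest one, the calls of Kpna6, Nup205, Nup214, Tnpo1, Tnpo2 and Xpo6 in the GFP IP over input were lost, as were those of Ipo4, Kpna2, Nup205, Nup214, Xpo1 and Xpo6 in the PABP1 IP over input and of Kpnb1, Nup160, Nup205, Nup214, Nup50, Nup54 and Seh1l between the IPs.

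**Figure D5:**
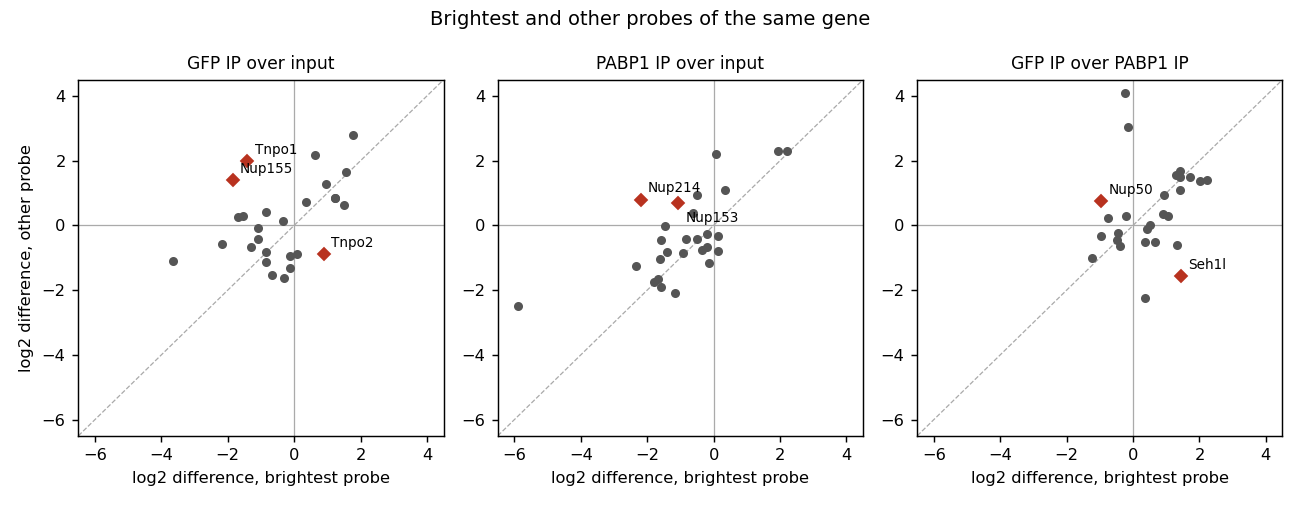
Log2 difference by a member's brightest probe (horizontal axis) and by its other probes that were well above background on all 8 arrays (vertical axis, 27 probes of 24 genes), in each comparison. Red diamonds are pairs called in opposite directions, named in the panels; the dashed line marks equal differences.

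Other genes of the pathway, which the name rule leaves out, were tested in the same fit. Of 51 names listed for the remaining nucleoporins, Ran regulators, export adaptors and helicases, 42 were on the array and 37 were tested. In the GFP IP over input 11 were called higher (29.7%, against 21.4% of all tested genes) and 11 lower (29.7%, against 43.3%), with a median of −0.22, against −0.51 over all tested genes. In the PABP1 IP over input 12 were called higher (32.4%, against 34.3%) and 10 lower (27.0%, against 25.3%), with a median of 0.05, against 0.24. Between the IPs 12 were called higher (32.4%, against 23.9%) and 10 lower (27.0%, against 47.4%), with a median of −0.08, against −0.67.

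Nupl1, which sits with Nup54 and Nup62 in the channel, was 8.76-fold higher in the GFP IPs than in input (3.13 ± 0.14, SE; adjusted p = 1.6e-05), and 1.56-fold higher in the PABP1 IPs than in input (0.65, adjusted p = 0.011). Next highest in the GFP IP over input were Fyttd1, an mRNA export adaptor, at 2.97, and Nxt2, a relative of Nxt1, at 2.30. The lowest there were Ahctf1, which brings the Y complex to chromatin, at −1.75, Thoc6 at −1.14 and Mcm3ap at −1.06. Thoc2, the large subunit of the THO export complex, was 31.5-fold lower in the PABP1 IPs than in input (−4.98 ± 0.34, SE; adjusted p = 3.73e-05), with Zc3h11a at −3.37 and Ahctf1 at −2.08.

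Highest in the PABP1 IP over input were Nutf2, the import factor of Ran, at 1.54, Thoc7 at 1.39 and Pcid2 at 1.34. Between the IPs, Thoc2 was 17.7-fold higher in the GFP IPs, at 4.14, followed by Fyttd1 at 2.97 and the helicase Ddx19b at 2.87. The lowest there were Thoc7 at −2.35, Eny2 at −2.32 and the sister helicase Ddx19a at −1.41. The 2 helicases also parted against input, with Ddx19b at 1.46 in the GFP IPs and −1.41 in the PABP1 IPs, and Ddx19a at −0.35, not called, and 1.06.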

How the data were processed

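RNA from 3 GFP IPs, 2 PABP1 IPs and 3 inputs was measured on 8 Agilent arrays of 1 colour, Cy3. The authors' intensity values, per the file headers, came from Feature Extraction 9.1.3.1 with protocol GE1-v5_95_Feb07, which subtracted background and replaced dim spots by a surrogate. The flags for outliers and for signal well above background, deposited in the same files, are other values than brightness. A deposited table of the authors' mean intensities per group served as an alternative; its scaling is nowhere stated in the sources used here, and its error columns were left aside.

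From the deposited intensity, log2 of the processed signal was taken, less log2 of the array's own 75th percentile (43379 probe spots). The array limits precision through its number of samples, and no read depth applies. Spots of a probe were averaged, and the 30 probes whose every spot was an outlier on some array were left out. A gene is the array's gene name, and its brightest probe stood for it. Tested were the 14744 of 27949 genes whose signal was well above background in each sample of 1 or more groups; 11386 were so on all arrays. Chosen probes carried an accession of the same symbol in the RefSeq table (GRCm38.p6) for 41 members, and an accession absent from that table for 8.

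The test was limma's lmFit and eBayes (version 3.58.1, R 4.3.3) on the 8 arrays together, with 5 residual and 2.10 prior degrees of freedom, two-sided, with Benjamini-Hochberg adjustment over all tested genes and a threshold of 0.05. The fit was tested on simulated data. Whether the arrays of a group stem from separate cultures is not in the labels, so the p-values speak of the spread among these samples only, and that may be technical. A member with a group in which no array was well above background got no test, and Xpo4 got approximate folds instead.

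The members, their roles, the lists and the alternatives were chosen with earlier results of these data known. Values on every array are given for the 6 highest and 6 lowest called members of each comparison and for members fixed by role; Ipo5, one of those, is named Ranbp5 on this array and falls outside the name rule. In the list of other transport genes, the 3 highest and 3 lowest called are named. Alternatives were other scalings, quantile normalization, normexp (offset 50), other filters, the mean of a gene's probes, every probe tested on its own (chosen after seeing the data), replicate number or slide as a block, each slide alone, leaving out each array, and the authors' group means. Tables and figures used the R package data.table (1.17.8), pandas 2.3.3, numpy 2.4.6 and matplotlib 3.10.9 in Python 3.11.15.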

Additional observations from a re-analysis of the deposited data

Results flagged for a closer look

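The 6 members called in opposite directions over input in the GFP IPs and the PABP1 IPs are set out here for those opposite calls. The difference between the IPs follows by subtraction from the same arrays and adds no support of its own. That difference, the GFP IP over the PABP1 IP on the log2 scale, was 2.7056 for Nup93, 2.3459 for Xpo1, 2.2388 for Kpna6, 1.7013 for Nup153 and 1.6561 for Xpo6. It was −1.5566 for Nup35. Over input, the GFP IPs and PABP1 IPs stood at 2.24 and −0.47 for Nup93, at 1.37 and −0.97 for Xpo1, and at 0.47 and −1.76 for Kpna6. They stood at 0.64 and −1.06 for Nup153, at 1.21 and −0.45 for Xpo6, and at −0.81 and 0.75 for Nup35. With normexp none of the 6 was called on both sides of input: of these 12 differences from input only that of Nup93 in the GFP IPs was still called (1.98). The difference between the IPs with normexp was called for Nup93 (2.21), Xpo1 (1.81), Kpna6 (1.67), Xpo6 (1.01) and Nup35 (−1.78), and not for Nup153 (1.13, adjusted p = 0.0979). Another probe of Nup153 kept its difference between the IPs, at 1.5, while it stood above input in both IPs, at 2.17 in the GFP IPs and 0.68 in the PABP1 IPs.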

How the results depend on the processing

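The 141 gene results were each tested under up to 19 other settings. Of the pairs of result and setting, 2402 kept their side of the threshold with no called direction turned. A further 197 lost a call, 60 gained one and 14 turned a called direction. Within the 2402, 56 changed sign between values called under neither setting. The normexp correction ended most calls. It left 3 higher and 8 lower members in the GFP IP over input, and 3 and 4 in the PABP1 IP over input. In the GFP IP over the PABP1 IP it left 8 and 4. The loss was not particular to the members. Over all tested genes normexp left 4.0% higher and 6.6% lower in the GFP IP over input. It left 11.2% and 4.4% in the PABP1 IP over input, and 7.6% and 21.1% between the IPs. Normexp turned Nxf1 to −0.0315 and −0.200 in the GFP IP and PABP1 IP over input. It turned Nup205 to 0.0820 between the IPs. Quantile normalization left 5 members higher in the PABP1 IP over input and 4 lower between the IPs, where Nup85 turned to 0.74 (called), Ran to 0.51 and Rangap1 to 0.0801. The authors' deposited table of group means, which carries no test, could be matched without ambiguity for 26 of the tested members. Of their differences, 22 moved by less than the spread between replicates, 55 by more, and 1, Nup85 between the IPs, turned to 0.00487. Differences from the deposited means exceeded those reported here by a median of 0.54 in the GFP IP over input (0.38 to 0.60, the most for Ipo8), 0.09 in the PABP1 IP over input (−0.17 to 0.13) and 0.45 between the IPs (0.31 to 0.61). They had the same sign for 25, 26 and 20 of the 26 in those comparisons. The mean of a gene's probes turned Nup155 to 0.45 and Tnpo1 to 0.28 in the GFP IP over input, Nup50 to −0.33 in the PABP1 IP over input, and Nup155 to 1.74, Tnpo1 to 1.92, Nup160 to −7.36e-05, Nup205 to 0.33 and Nup214 to −0.40 between the IPs. The causes were not tested.

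The 8 members lower in the GFP IP than in the PABP1 IP became 5 with the percentile over detected probes, 5 with no filter on dim probes, 14 with slide as a block, 5 on slide 1 alone, and 5 to 10 on leaving out 1 array (5 without PABP1 IP 1, 10 without input 3). Slide 2 alone left 4 members higher in the PABP1 IP over input. Replicate numbers did not pair samples: correlations of same-numbered arrays' deviations from their group means ran from −0.74 to 0.62, and arrays of a slide deviated together (0.44 to 0.77). With slide as a block 16 calls were gained and 0 lost. Calls over all tested genes rose too, to 24.6% higher and 50.9% lower in the GFP IP over input. They rose to 43.2% and 30.6% in the PABP1 IP over input, and to 27.0% and 55.8% between the IPs. With the replicate block, called members were 17 higher and 22 lower in the GFP IP over input, 7 and 27 in the PABP1 IP over input, and 24 and 8 between the IPs, and the block ended the calls of Kpna4, Nup54 and Nup205, 1 in each comparison. Signal near background limits Nxf1, Nup107, Xpo4 and Nup210l.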

Other observations

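Genes of the nuclear lamina and envelope, the neighbours of the pore, were listed for comparison. Of 20 names, 18 were on the array and tested. In the GFP IP over input 6 were called higher (33.3%, against 21.4% of all tested genes) and 4 lower (22.2%, against 43.3%), with a median of 0.16, against −0.51 over all tested genes. In the PABP1 IP over input 4 were called higher (22.2%, against 34.3%) and 7 lower (38.9%, against 25.3%), with a median of −0.25, against 0.24. In the GFP IP over the PABP1 IP 8 were called higher (44.4%, against 23.9%) and 5 lower (27.8%, against 47.4%), with a median of 0.13, against −0.67. Named after their values were seen, Lemd3 and Lbr, inner nuclear membrane proteins that bind chromatin or its partners, stood at 2.99 and 2.68 in the GFP IP over input. In the PABP1 IP over input they stood at 0.09 and −0.23, neither called. Banf1, a small chromatin-binding protein, stood at 0.90 in the GFP IP over input and at 2.26 in the PABP1 IP over input. The B-type lamin Lmnb1 stood at 0.07, not called, in the GFP IP over input and at −1.96 in the PABP1 IP over input.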
